A study of Mus musculus with 31 samples.

Results

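Lungs of AKR and C57 mice were compared after both strains had received normal saline into the trachea, the vehicle that served as the control for bacterial lipopolysaccharide (LPS) in this study of cigarette smoke and acute lung injury. The comparison rests on 6 of the 31 gene expression arrays, chosen by their titles: 3 of AKR and 3 of C57 lung, with room air as the exposure before the instillation. Every array measured total RNA of whole lung from male mice with an age of 6 weeks in the labels, and C57 carries the strain label C57 BL/6, with no substrain. The titles give 3 weeks of room air for these 6 arrays whereas the design text gives 6 weeks for mice that were instilled, so the length of the exposure is not settled. The time between instillation and dissection is not given in the sources used here. The labels call the arrays biological replicates without naming animals, so p-values measure the spread between these arrays.

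A further 8 arrays of lung without any instillation were used to look for offsets between arrays: C57 in room air titled 6 weeks (3 arrays), AKR in room air titled 6 weeks (3) and AKR in room air titled 3 weeks (2). The deposited values fell into 2 sets of arrays. The AKR saline arrays and the AKR arrays titled 3 weeks had median log2 signals of 6.81 to 6.88 and maxima of 14.12 to 14.27. The arrays of C57, and those of AKR titled 6 weeks, had medians of 7.03 to 7.09 and maxima of 13.74 to 13.96. Strain and array set therefore coincided in the saline comparison and cannot be told apart within it.

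Inbred strains differ at fixed sites of the genome, and AKR, a strain known for its endogenous retroviruses and thymic lymphoma, carries another haplotype of the major histocompatibility complex (MHC) than C57. Lung tissue holds epithelium, vessels and matrix, and a large pool of B, T and natural killer (NK) cells, monocytes and neutrophils in its capillaries and tissue. In RNA of whole lung, fewer cells of a type and less RNA per cell cannot be told apart. Interferons and bacterial products induce defence genes in many of these cells, and handling or injury can induce the heat shock chaperones, which refold damaged proteins.

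The defining lung markers were present in both strains. The surfactant gene Sftpc read 13.31 to 13.62 on the 6 arrays and the club cell gene Scgb1a1 13.31 to 13.68, with overlapping groups. Ager of alveolar type 1 cells read 11.52 to 12.62, its lowest and highest values both on AKR arrays. Correlations between arrays of one strain were 0.9887 to 0.9925 in C57 and 0.956 to 0.9842 in AKR, so that the AKR arrays were the less alike, and 0.9092 to 0.9399 between strains.

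With saline, 4822 of 13861 genes passed the test (34.8%; limma, Benjamini-Hochberg adjusted p under 0.05, which is what "called", "higher" and "lower" mean throughout). Of these, 2356 were higher (17%) and 2466 lower (17.8%) in AKR, 562 differed by more than 2-fold and 77 by more than 4-fold. On the deposited values without the quantile step, where the median difference of all genes was -0.16 in place of 0.02, the split was 1037 higher and 4497 lower. On 7267 genes (52.4%) the 3 AKR values lay wholly above or below the 3 C57 values. This held for 4817 of the 4822 called genes (99.9%), so groups without overlap add little to a call. Most differences were small: the median absolute difference was 0.24 on the log2 scale against a median standard error (SE) of 0.1. Among the genes that differed by more than 2-fold, 396 were lower and 166 higher in AKR.

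The uninstilled lungs gave the measure of how much of this existed without saline and of what moved with the array set. Between the strains in room air, both titled 6 weeks and within one array set, 652 genes passed the same test (4.7%), 265 higher (1.91%) and 387 lower (2.79%) in AKR. Without AKR 6 week replicate 3 there were 362. These 2 comparisons share no array. Of the 652 genes, 469 differed the same way with saline, which is 71.9% of the room air calls and 9.73% of the saline calls, and 7 differed the opposite way. Within AKR, the arrays titled 3 weeks differed from those titled 6 weeks at 366 genes (2.64%), 203 of them higher (1.46%) and 163 lower (1.18%) at 3 weeks, and at 7 to 120 genes when any 1 of these 5 arrays was left out. This difference, called the AKR set difference below, changes array set and titled time together while strain and treatment stay the same. Of the 4822 saline calls, 218 (4.52%) moved the same way in it.

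The remaining term is the strain difference in the response to saline, which is AKR saline minus AKR titled 3 weeks, less C57 saline minus C57 titled 6 weeks. Each of its differences lies within one array set, although the titled time also differs between the C57 groups. It passed at 1032 genes (7.45%), 282 higher (2.03%) and 750 lower (5.41%) in AKR. It shares arrays with the other 3 comparisons, so its values are given beside theirs as a description. The room air, set and response differences add up to the saline difference of the 14 arrays normalized together, which can depart slightly from that of the 6. It also moved with single arrays. Without C57 room air replicate 1, 2 or 3 it passed at 2124, 473 and 551 genes, without AKR 3 week replicate 1 or 2 at 605 and 213, and without C57 saline replicate 2 or 3 at 524 and 532. Leaving out 1 of the 6 saline arrays gave between 2748 calls (without C57 replicate 2) and 5533 (without AKR replicate 3) in the saline comparison. Without C57 replicate 3 there were 2824, without AKR replicate 1 there were 3121, and the higher calls alone were 1537 without C57 replicate 1. With the AKR set difference subtracted in the fit of the 14 arrays, 2228 genes were called (16.1%), 833 higher (6.01%) and 1395 lower (10.1%). Of the 4822 saline calls of the 6 arrays, 1939 (40.2%) were among them in the same direction.

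**Figure D1:**
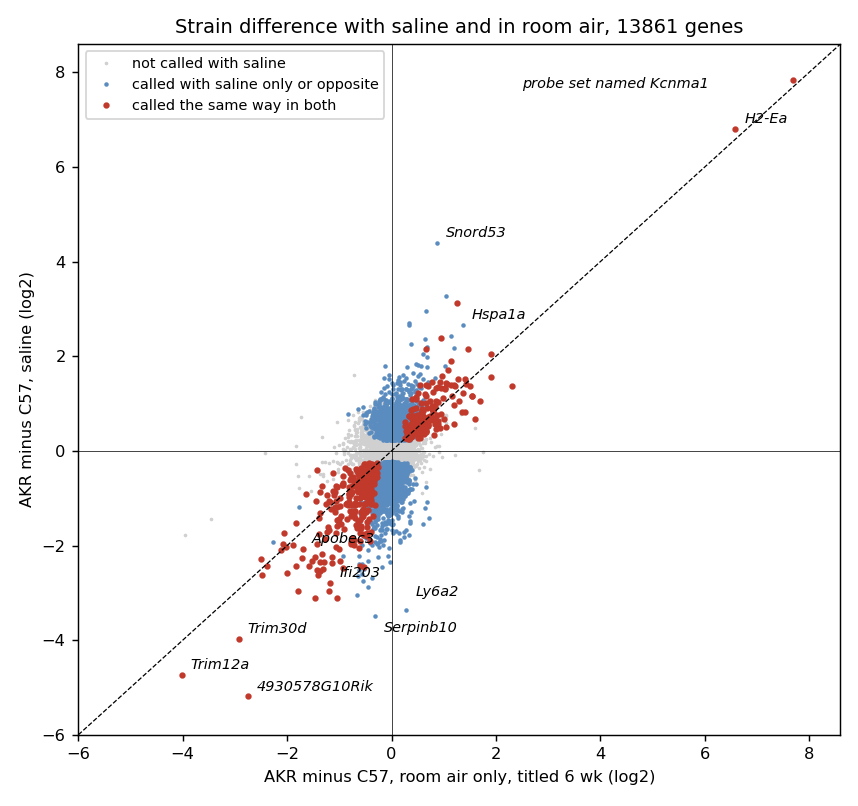
Difference between AKR and C57 for each of the 13861 genes tested, in room air only (x axis, log2, titled 6 weeks) and with saline (y axis, log2). Red points are the 469 genes called the same way in both, blue points were called with saline only or the opposite way, grey points were not called with saline, and the dashed line marks equal differences. H2-Ea, Trim12a and Trim30d lie near the dashed line, while Serpinb10, Ly6a2 and Snord53 lie far from it.

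Among the genes with the largest differences, several differed about as much in room air as with saline. H2-Ea, the alpha chain of the MHC class II molecule E, which the b haplotype of C57 strains is known not to express, read 11.79, 11.87 and 11.85 on the AKR arrays. On the C57 arrays it read 4.88, 5.21 and 4.98, so both groups were tight and far apart. The only probe set of H2-Ea shares no RefSeq transcript with it. The difference was 6.81 ± 0.1 (SE; limma, adjusted p = 1.69e-07), and it was 6.59 in room air. The C57 values lay below the 40th percentile of the arrays (6.342). With no detection calls, a signal that dim is not shown to be above background, so no fold is given, and the size of this and other differences with a group below that percentile is limited by the dim signals. The probe set that is named Kcnma1, after a potassium channel, was higher still, at 12.82, 12.76 and 12.76 in AKR and 4.82, 5.41 and 4.63 in C57. It shares no RefSeq transcript with that gene, whereas the second probe set of Kcnma1, which does, differed by 0.11 (7.7 in room air for the first), so this signal belongs to a probe set and is not a value for the channel.

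Among the 3 genes with the most negative differences were 2 of a cluster of Trim genes on chromosome 7, which encode relatives of the antiviral factor TRIM5. Trim12a read 4.37, 4.25 and 4.03 in AKR and 8.96, 8.82 and 9.05 in C57, a difference of -4.73 ± 0.11 (SE). Trim30d read 4.3, 4.01 and 3.89 against 8.04, 8.02 and 8.04, a difference of -3.97 ± 0.11 (SE), and the groups were separated by more than 3 log2 units for both genes, whose AKR values all lay below the 40th percentile. In room air these differences were -4.02 and -2.93, also called. Their neighbour Trim30a, a feedback regulator of Toll-like receptor signalling, differed by -1.05 with saline (limma, adjusted p = 0.00303) but by -0.06 in room air, which was not called. The Trim genes are close copies of each other, and probe sequences were not used here, so a base difference of AKR under a probe cannot be told apart from less RNA in these and other strain differences. The most negative difference of all was that of 4930578G10Rik, whose probe set lists no RefSeq transcript of it, at 3.17, 2.78 and 2.36 against 8.06, 7.76 and 8.04. Its AKR values lay below the 5th percentile of the array (3.43), and its difference of -5.18 stood beside -2.75 in room air and -2.55 in the AKR set difference.

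Apobec3, a cytidine deaminase that restricts retroviruses and is known to vary between strains, read 7.61, 7.94 and 7.9 in AKR and 9.88, 9.77 and 10.01 in C57. The groups did not overlap, and the difference of -2.07 ± 0.12 (SE; limma, adjusted p = 5.95e-05) compared with -1.7 in room air. On chromosome 4 the neighbours Bspry, Hdhd3 and Alad were all higher in AKR. Alad, which encodes the second enzyme of haem synthesis, differed by 1.52 with saline and 1.26 in room air, and Hdhd3 by 1.33 and 0.95. Bspry differed by 0.4 with saline and -0.01 in room air, and its call ended without C57 replicate 3 (adjusted p = 0.061). Segments holding Alad and Glo1 are known to be duplicated in some inbred strains. Around Glo1 on chromosome 17, which encodes the enzyme that clears methylglyoxal, the same held: Glo1 read 9.96, 9.99 and 10.02 in AKR and 8.78, 8.91 and 8.93 in C57, a difference of 1.12 with saline and 0.98 in room air. Its neighbour Dnah8, a dynein heavy chain, differed by 1.36 and 1.5. Btbd9, on the other side, differed by 0.58 with saline and 0.08 in room air, where it was not called, and by 0.48 in the AKR set difference, where it was.

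Other genes known to vary between strains also differed in both comparisons. Nnt, the mitochondrial transhydrogenase that is truncated in the C57BL/6J substrain, was higher in AKR by 1.39 with saline and 1.14 in room air. Wdfy1, an adaptor of Toll-like receptor signalling, was higher by 1.05 and 0.74. Hc, the gene of complement C5, which is known to be inactivated in AKR, was lower, differing by -0.61 (limma, adjusted p = 0.0251) and -0.79, with a call that ended without any one of the 3 C57 arrays (adjusted p 0.063 to 0.086). The chemokine genes Ccl17 and Ccl22, which share the receptor CCR4 and lie together on chromosome 8, were lower, differing by -1.73 and -1.13 with saline and by -2.07 and -1.26 in room air. Of the 37 tested genes of the list of strain loci, 6 were higher (against 17% of all genes) and 14 lower (against 17.8%) with saline. In room air 8 were higher (against 1.91%) and 7 lower (against 2.79%). That list was drawn up with results of this series known and is no independent evidence of direction.

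**Figure D2:**
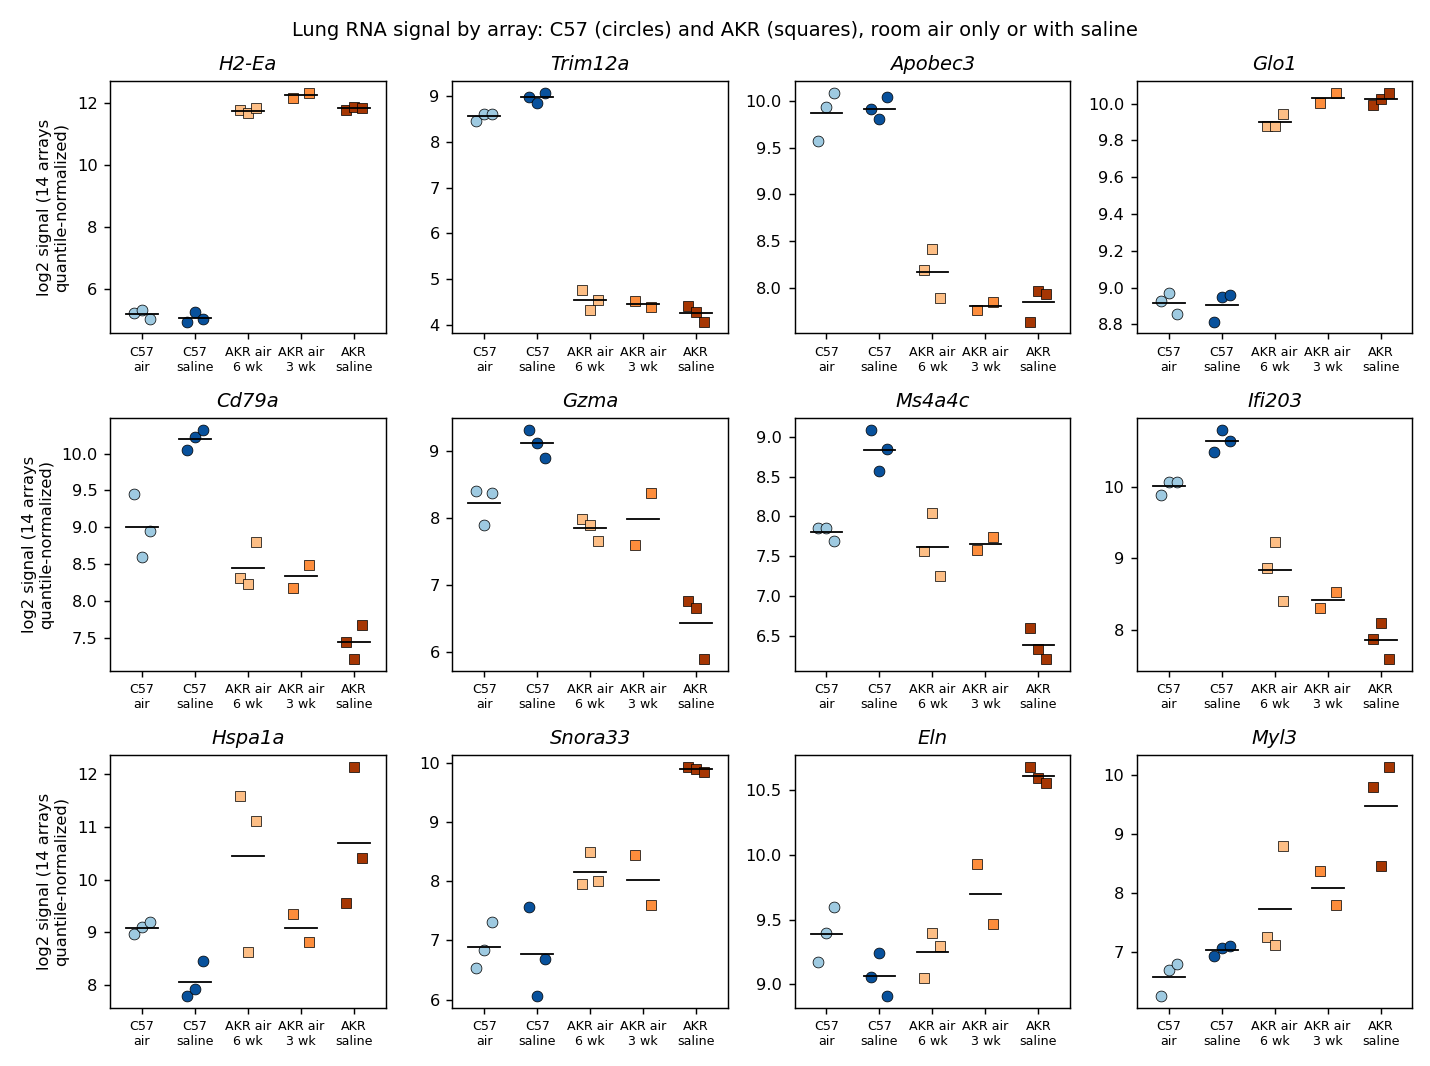
Log2 signal of 12 genes on each of the 14 arrays, quantile-normalized together, for C57 (circles) and AKR (squares) in room air only or with saline. Each point is 1 array and each line a group mean. H2-Ea, Trim12a, Apobec3 and Glo1 separated the strains in room air and with saline, whereas Cd79a, Gzma and Ms4a4c were highest in C57 saline and lowest in AKR saline.

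Genes of lymphocytes and monocytes made up the second large block, lower in AKR after saline. Of the 26 tested genes of B and plasma cells, 22 were lower and none higher, with a median difference of -1.44 against 0.02 over all 13861 genes. Of all genes, 17.8% were lower and 17% higher with saline, 2.79% were lower in room air and 5.41% were lower in the response. All 18 tested NK cell and cytotoxic genes were lower, with a median of -1.55, 4 of them in room air and 14 in the response. In the T cell list 18 of 22 were lower and 1, the kinase gene Zap70, was higher. Of the 10 tested thymocyte genes 8 were lower, and of the 19 monocyte genes 13 were, with medians of -0.74 and -0.71. A gene could pass the filter on dim signals through one strain alone, so these counts describe the tested members only.

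Cd79a, a signalling chain of the B cell receptor, read 7.41, 7.18 and 7.65 in AKR and 10.02, 10.2 and 10.29 in C57. The groups lay more than 2 log2 units apart, and the difference was -2.76 ± 0.14 (SE; 6.75-fold lower; limma, adjusted p = 4.34e-05). Its partner chain Cd79b differed by -2.6 ± 0.1 (SE) and Ms4a1, which encodes CD20, by -2.43 ± 0.14 (SE). In room air the same 3 genes differed by -0.55, -0.57 and -0.61, of which only the last passed, and the differences in the response to saline were -2.09, -1.9 and -1.85, all called. Igha, the constant region of immunoglobulin A, was lower, differing by -3.11 ± 0.27 (SE), and by -1.04 in room air, also called, through a probe set that shares no RefSeq transcript with it. Cd72, an inhibitory B cell receptor, was lower, differing by -2.49, and the complement receptor Cr2 by -1.79. Of the 26 B cell genes, 9 were lower in room air (against 2.79% of all genes) and 19 in the response (against 5.41%).

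Gzma, the protease granzyme A of cytotoxic cells, read 6.72, 6.61 and 5.85 in AKR and 9.28, 9.09 and 8.85 in C57, without overlap. It differed by -2.68 ± 0.23 (SE; 6.42-fold lower; limma, adjusted p = 0.000338), by -0.38 in room air (not called) and by -2.44 in the response. Ccl5, a chemokine of activated lymphocytes, read 7.86, 7.98 and 8.03 against 10.39, 10.43 and 10.46, again without overlap. Its difference of -2.47 ± 0.08 (SE) stood beside -0.93 in room air and -2.06 in the response, both called. Klrb1c, the gene of the NK1.1 antigen, differed by -3.05, of which -1.64 was also present in the AKR set difference, and its AKR values of 4.38, 3.95 and 4.33 were dim. Klra8, an activating Ly49 receptor, differed by -2.57 with saline and nearly as much in room air, at -2.01. Receptors of the Klra and Klrb families are near copies of each other and vary between strains, so their values are uncertain.

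Among T cell genes, Cd8b1 of the CD8 coreceptor differed by -2.1 ± 0.13 (SE), the costimulatory receptor Cd27 by -1.86 ± 0.17 (SE), the interleukin 7 receptor Il7r by -1.8 ± 0.11 (SE) and the adhesion receptor Cd2 by -1.55 ± 0.11 (SE). Cd3e, a chain of the T cell receptor complex, differed by -0.91 with saline, 0.15 in room air and -1.24 in the response. In room air 1 of the 22 T cell genes was lower (against 2.79% of all genes), and 16 were lower in the response (against 5.41%).

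Of the monocyte genes, Ms4a4c, a membrane protein gene of myeloid cells, read 6.57, 6.3 and 6.17 in AKR and 9.06, 8.53 and 8.81 in C57. The groups did not overlap, and the difference of -2.45 ± 0.16 (SE; limma, adjusted p = 9.47e-05) compared with -0.18 in room air and -2.3 in the response. Ms4a6c of the same family differed by -1.91, Treml4, a receptor of monocytes, by -1.77, and Ccr2, which draws monocytes from the blood, by -1.62. For all of these the room air difference was not called and the response difference was. In the list, 11 of 19 monocyte genes were lower in the response (against 5.41% of all genes) and 1 in room air (against 2.79%).

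Neutrophil and macrophage genes were lower with less support. Of the 11 tested neutrophil genes 8 were lower (against 17.8% of all genes). That count fell to 4 without C57 replicate 1, C57 replicate 2 or AKR replicate 1. It was also 4 once the AKR set difference was subtracted, and 3 with all 31 arrays fitted. Mmp8, the neutrophil collagenase, differed by -2.04 ± 0.15 (SE) and -1.98 in the response. S100a8, a calcium-binding protein abundant in neutrophils, read 6.34, 6.97 and 5.73 in AKR and 8.65, 7.67 and 7.36 in C57, a wide spread within C57, and differed by -1.55 ± 0.4 (SE; limma, adjusted p = 0.0216). It lost its call without C57 replicate 1, C57 replicate 2 or AKR replicate 1 (adjusted p 0.057 to 0.062). Cxcr2, the receptor for neutrophil-attracting chemokines, differed by -1.41, with -0.74 in the AKR set difference, and was not called after its subtraction (-0.67). Of the 32 alveolar and tissue macrophage genes 15 were lower (against 17.8%) and 1, Folr2, higher (against 17%). After the set difference was subtracted 7 were lower (against 10.1%). Chil3, a chitinase-like protein secreted by macrophages and neutrophils, differed by -2.62 with saline and -1.4 in room air, and the lysosomal marker Cd68 by -1.17 and 0.11.

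Averaged over members, the levels on single arrays showed the same separation. The B cell list deviated from its mean over the 14 arrays by 0.649, 0.818 and 0.84 on the C57 saline arrays and by -0.699, -0.827 and -0.531 on the AKR saline arrays. On the 8 uninstilled arrays it lay between -0.331 and 0.316. T cell genes followed that order, at 0.333 to 0.464 in C57 saline and -0.499 to -0.386 in AKR saline against -0.0703 to 0.201 without instillation. For monocyte genes the ranges were 0.337 to 0.466, -0.621 to -0.408 and -0.217 to 0.189. On each of these lists every C57 saline array thus lay above, and every AKR saline array below, all 8 arrays without saline.

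**Figure D3:**
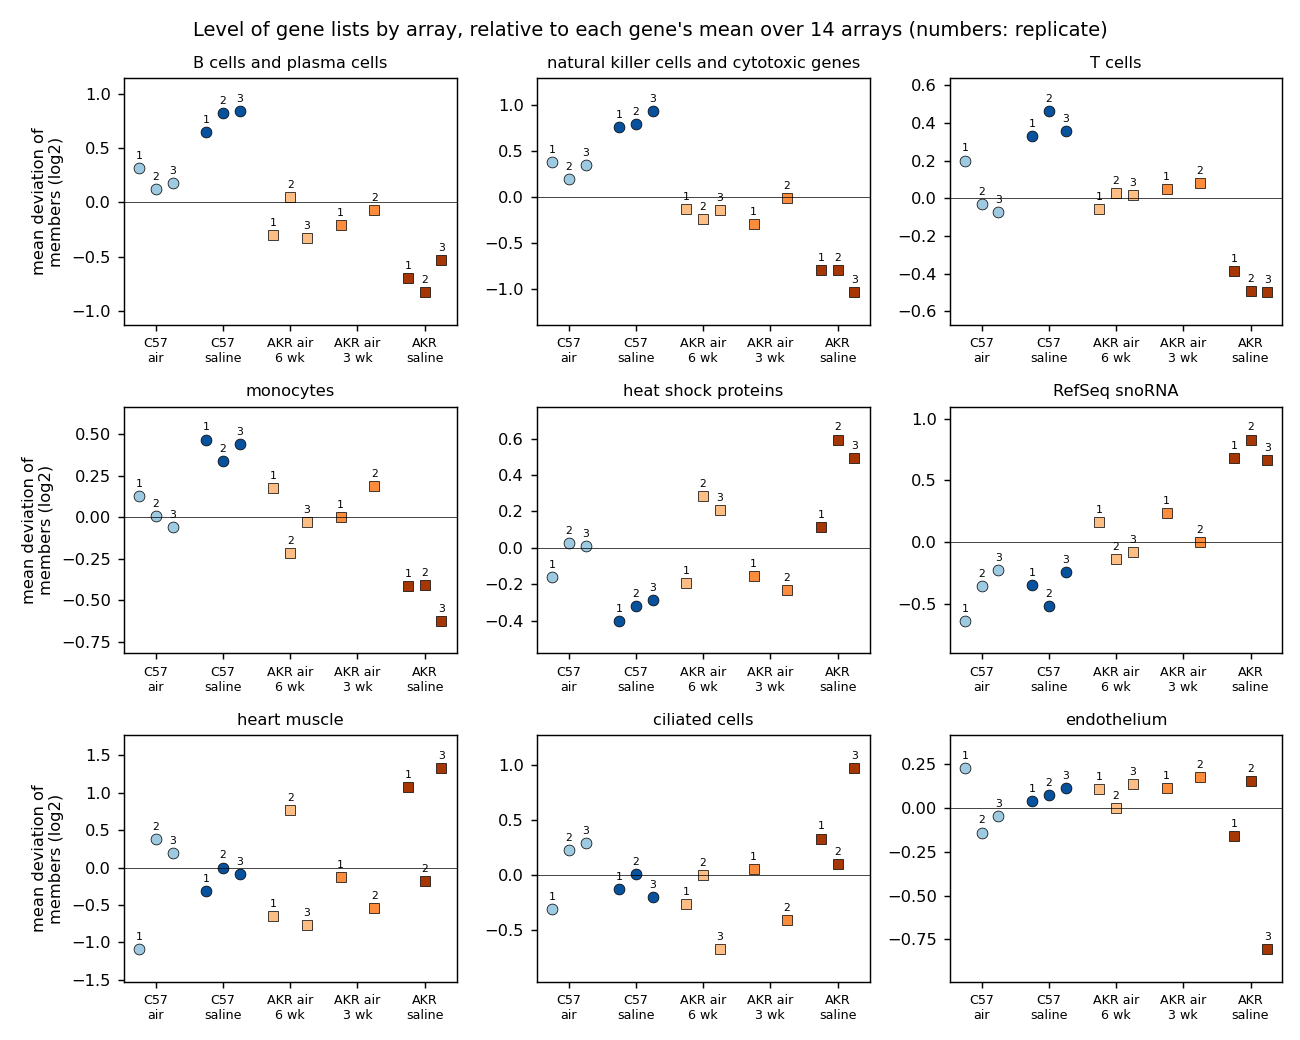
Mean deviation of a list's tested members from each gene's mean over the 14 arrays (y axis, log2), for C57 (circles) and AKR (squares); numbers are replicates. The lymphocyte and monocyte lists were highest on the 3 C57 saline arrays and lowest on the 3 AKR saline arrays, while for heart muscle (-0.184), ciliated cells (0.97) and endothelium (-0.805) 1 AKR saline array stood apart from the other AKR saline arrays.

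The genes with the largest negative difference in the response to saline were Serpinb10, a serine protease inhibitor of haematopoietic cells, and Ly6a2. Serpinb10 read 5.21, 5.27 and 4.5 in AKR and 8.34, 8.34 and 8.78 in C57, a difference of -3.49 ± 0.22 (SE), with all AKR values below the 40th percentile. In room air it differed by -0.32, which was not called, and in the response by -3.91. Ly6a2 read 5.49, 5.47 and 5.6 against 9.19, 8.96 and 8.51, through a probe set that shares no RefSeq transcript with it, and differed by 0.28 in room air and -3.37 in the response. Glp1r, the receptor for the gut hormone GLP-1, read 9.15, 9.54 and 8.03 in AKR and 11.61, 11.96 and 11.75 in C57, with AKR replicate 3 the lowest. Its difference was -2.87 ± 0.35 (SE) with saline, -0.46 in room air and -2.79 in the response. Vsnl1, a calcium sensor, differed by -1.94 with saline and -2.55 in the response, and 2 receptors of myeloid cells, Adgre4 and Clec4a3, by -1.92 and -2.35 with saline and by -2.55 and -2.58 in the response.

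Sensors of bacterial products were lower in part. Of 31 tested genes of LPS sensing and pattern recognition, 12 were lower (against 17.8% of all genes) and 1, Nod2, higher (against 17%), with a median of -0.26 and a share called of 41.9% against 34.8%. Ly96, which encodes MD-2, the LPS-binding partner of TLR4, read 8.33, 7.9 and 8.06 in AKR and 9.59, 9.82 and 9.87 in C57. The groups did not overlap, and it differed by -1.67 ± 0.13 (SE; limma, adjusted p = 0.000214), by 0.0 in room air and by -1.6 in the response. Cd180 and Ly86, which form a receptor pair related to TLR4 and MD-2, differed by -1.99 and -1.82. Tlr13, a sensor of bacterial ribosomal RNA, differed by -1.95 and Tlr1, a partner of TLR2 for lipopeptides, by -1.78. For Ly96, Cd180, Ly86, Tlr13 and Tlr1 the response difference was called, and of them Tlr1 alone was called in room air (-0.53). The list as a whole had 10 of 31 genes lower in the response (against 5.41% of all genes) and 1 in room air (against 2.79%).

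Interferon-inducible genes were lower in AKR both in single clusters and as a list. Of the 30 tested interferon-stimulated genes 19 were lower (against 17.8% of all genes) and 1, Usp18, higher (against 17%), with a median of -0.42. The count was 12 without C57 replicate 2 and 11 after subtraction of the set difference. Of 12 tested genes for interferon gamma-induced GTPases and their regulators 8 were lower (against 17.8%), with a median of -0.66. With all 31 arrays fitted together, 5 of the interferon-stimulated and 3 of the GTPase genes were lower. Rsad2, which encodes the antiviral enzyme viperin, differed by -1.55 ± 0.15 (SE) and Ifit3 of the interferon-induced tetratricopeptide family by -1.22 ± 0.21 (SE). Iigp1 and Irgm1, GTPases that attack the vacuoles of intracellular pathogens, differed by -1.87 and -1.0, and the guanylate-binding proteins Gbp4 and Gbp7 by -1.17 and -1.12. Of these 6 genes only Iigp1 was also called in room air (-1.28). In the response 6 of the 30 interferon-stimulated genes and 3 of the 12 GTPase genes were lower (against 5.41% of all genes).

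On chromosome 1, 10 genes that follow each other among the tested genes, from Slamf8 to Ifi203 (chr1:172581377-173942866, GRCm38.p6), were all lower in AKR with saline, with a median of -2.47, and 6 of them also in room air. Most belong to the Ifi200 family, whose products bind nucleic acids. Ifi203 read 7.85, 8.07 and 7.57 in AKR and 10.46, 10.77 and 10.61 in C57, without overlap. Its difference of -2.79 ± 0.14 (SE; limma, adjusted p = 4.64e-05) split into -1.18 in room air and -1.2 in the response, both called, with -0.41 in the AKR set difference. Ifi209 and Ifi208 differed by -2.96 and -3.11, and Ifi213 by -2.43, of which -1.83 stood in room air. For Ifi207 the difference was -1.62, and -0.83 of it stood in the AKR set difference. Schlafen genes on chromosome 11 formed another such run: Slfn8 and Slfn1 differed by -2.26 and -2.35 with saline and by -1.72 and -1.37 in room air, while Slfn2 differed by -0.96 with saline and -0.12 in room air. Ifitm6, of the interferon-induced transmembrane family, differed by -2.95 and -1.79. Members of these families resemble each other closely, and how the probes divide between them was not tested.

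**Figure D4:**
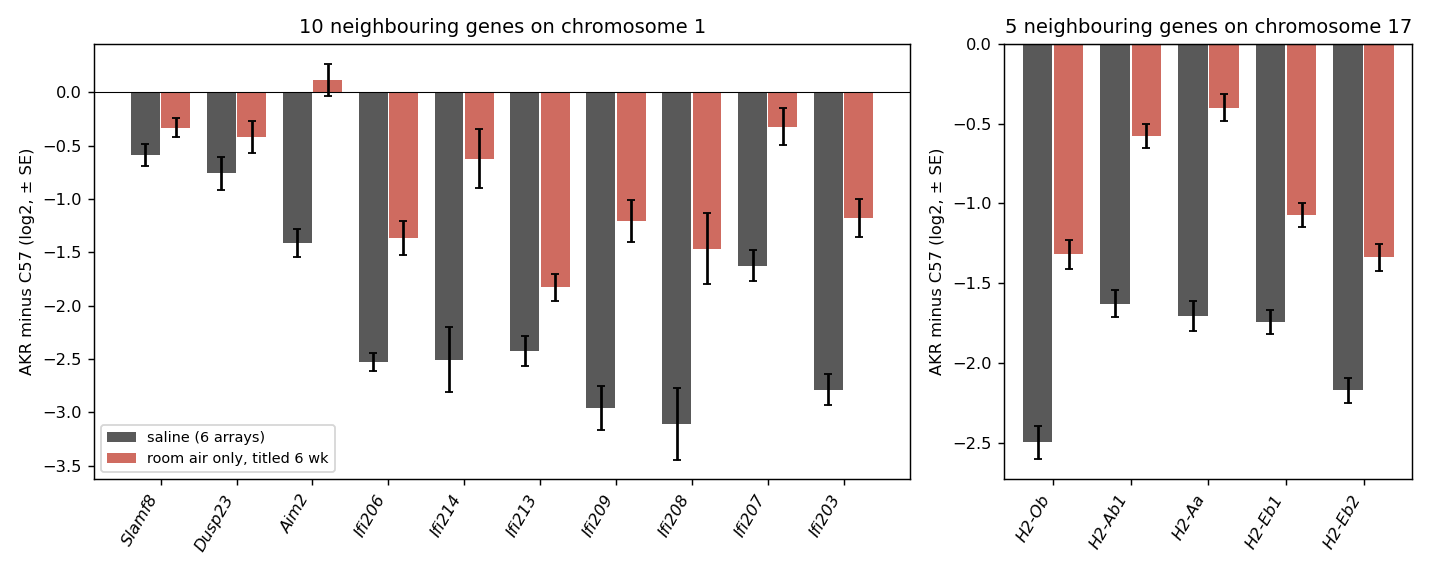
Difference between AKR and C57 (y axis, log2; bars with SE) with saline (grey) and in room air only (red) for 10 neighbouring genes on chromosome 1 and 5 on chromosome 17. The median difference with saline was -2.47 in the first run and -1.74 in the second, where all 5 genes were also lower in room air.

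MHC class II molecules present peptides to helper T cells, and most of their genes, H2-Ea apart, were lower in AKR. Of the 13 tested genes of the list, 11 were lower (against 17.8% of all genes) and 1, H2-Ea, higher (against 17%). In room air 7 were lower (against 2.79%) and 1 higher (against 1.91%). The 5 neighbours H2-Ob, H2-Ab1, H2-Aa, H2-Eb1 and H2-Eb2 (chr17:34238905-34341410, GRCm38.p6) were lower both with saline and in room air. H2-Ob, a chain of the regulator H2-O of B cells, read 7.63, 7.61 and 7.81 in AKR and 10.04, 10.34 and 10.16 in C57, a difference of -2.5 ± 0.1 (SE) with -1.32 in room air. H2-Aa and H2-Ab1, the chains of molecule A, differed by -1.71 ± 0.09 and -1.63 ± 0.09 (SE), and -0.9 and -0.66 of this stood in the AKR set difference. H2-Eb1, the beta chain of molecule E, differed by -1.74 with saline, -1.07 in room air and -0.54 in the AKR set difference. H2-Eb2 differed by -2.17 with saline and -0.78 in the response, and H2-Oa, the partner chain of H2-Ob, by -1.16 and -1.04. These alleles differ between the haplotypes, so their probes carry the limit named for the Trim genes. In the class I pathway the peptide transporter gene Tap1 differed by -1.15, and H2-Q2 by -1.91 with -1.33 in the AKR set difference.

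The promoters of class II genes are known for a shared Y box that binds the factor NF-Y, and 4 of the 9 class II genes of the list with a promoter sequence in RefSeq held the exact letters CTGATTGG, or CCAATCAG on the other strand, within the 250 bases before a transcription start (44.4%, against 4.43% of all 27025 genes with a promoter there). All 4 were lower in AKR. So were H2-DMa, H2-Ob, Ifi30 and Lgmn, which held no match, while Ctss, also without one, was not called. With 8 of the 9 genes lower, these counts cannot show whether the letters set the lower genes apart. Stretches of 30 bases around the match are shown, 5′ to 3′ on the gene's strand with the Y box in capitals, because the 4 genes carry it in the same orientation. They come from the C57BL/6J reference (RefSeq, GRCm38.p6), and the AKR letters were not used here.
H2-Aa, chr17:34287856-34287885, minus strand: aagagaattttCTGATTGGttctggcgagt
H2-Eb1, chr17:34305794-34305823, plus strand: ctcctttgatgCTGATTGGctcccagcact
H2-Eb2, chr17:34325561-34325590, plus strand: gctcttggctgCTGATTGGttcttcagcac
H2-Oa, chr17:34092322-34092351, plus strand: agagaactgctCTGATTGGctgcttaccgc

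In the other direction, the heat shock chaperones were higher in AKR after saline. Of 29 tested genes 20 were higher (against 17%) and none lower, with a median of 0.66, and 12 were higher in the response (against 2.03%), while none was called in room air. Hsph1, a nucleotide exchange factor of HSP70, read 9.9, 11.21 and 10.75 in AKR and 7.91, 8.17 and 7.84 in C57. All AKR values lay above all C57 values, and the difference was 2.65 ± 0.3 (SE; 6.28-fold higher; limma, adjusted p = 0.000972), with 0.33 in room air and 3.32 in the response. Hspa1a, the stress-induced HSP70, read 9.51, 12.14 and 10.39 in AKR and 7.75, 7.88 and 8.41 in C57, so that the AKR arrays spread over more than 2 log2 units. Its difference of 2.66 ± 0.59 (SE; adjusted p = 0.0128) lost its call without C57 replicate 1 or 2 (adjusted p 0.051 and 0.053), and the response difference of 2.66 was not called. On the uninstilled AKR arrays titled 6 weeks Hspa1a was no less variable, at 8.62, 11.12 and 11.6.

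The co-chaperones moved with them. Dnajb1, the HSP40 that delivers clients to HSP70, differed by 1.54 ± 0.34 (SE; limma, adjusted p = 0.0132; 0.053 without C57 replicate 2), Dnaja1 by 1.29 ± 0.15 (SE) and Ahsa2, an activator of HSP90, by 1.39 ± 0.28 (SE). Hspd1 and Hspe1, which form the mitochondrial chaperonin, differed by 1.1 ± 0.13 and 0.84 ± 0.14 (SE), the small chaperone Hspb1 by 0.93 (limma, adjusted p = 0.0248; 0.057 to 0.086 without any 1 of the C57 arrays) and the HSP90 co-chaperone Fkbp4 by 0.66. A second probe set of Hspe1 differed by 0.16 only. The count of 20 fell to 13 without C57 replicate 1 and 12 without C57 replicate 2. On the C57 saline arrays the list lay at -0.399 to -0.284, below all 8 uninstilled arrays, and on the AKR saline arrays it lay at 0.117, 0.595 and 0.493, of which the first lay within the uninstilled range of -0.232 to 0.286. In the endoplasmic reticulum, Hspa5, which encodes the chaperone BiP, was higher by 0.72 ± 0.08 (SE) with saline, -0.04 in room air and 0.79 in the response. Of the 30 genes of the unfolded protein and integrated stress response, 7 were higher and 3 lower with saline, a share called (33.3%) near that of all genes (34.8%), and 8 were higher in the response (against 2.03%).

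Heat shock factor is known to bind inverted repeats of the unit GAA. A 2-unit form, GAANNTTC, reads the same on both strands. It was found within 250 bases before a start in 8 of the 23 tested heat shock genes with a promoter sequence (34.8%, against 7.73% of all 27025 genes). Of the 17 that were higher, 6 held it (35.3%). The 3-unit form, GAANNTTCNNGAA on either strand, contains the shorter one and was found in 3 of the 23 (13%, against 0.514%), 2 of them higher. These 2 are Hspd1 and Hspe1, whose windows share the stretch on opposite strands. The stretches are shown from the C57BL/6J reference (RefSeq, GRCm38.p6), 5′ to 3′ on the gene's strand, with the repeats in capitals, for Hspe1 those of the 3-unit form. They are letters in the reference and no measure of binding. Hsph1 and Dnajb1, among the members of the list with the largest differences, held no match to these 2 forms. The opposite order of the units, TTCNNGAA, was not searched for alone, and the Hsph1 windows hold it as TTCTCGAA.
Hspe1, chr1:55088053-55088082, plus strand: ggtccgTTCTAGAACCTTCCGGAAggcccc
Hspa1a, chr17:34972242-34972271, minus strand: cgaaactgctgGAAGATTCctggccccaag
Hspb1, chr5:135887801-135887830, plus strand: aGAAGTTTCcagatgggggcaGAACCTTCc
Dnaja1, chr4:40722333-40722362, plus strand: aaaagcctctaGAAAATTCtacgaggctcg
Fkbp4, chr6:128438789-128438818, minus strand: ccgcttctctaGAAAGTTCtccgctcccgc

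Small nucleolar RNAs, which guide the modification and cleavage of ribosomal RNA, were mostly higher in AKR. They were grouped by their RefSeq biotype after the largest differences had been seen. Of 41 tested snoRNAs 28 were higher (against 17% of all genes) and 2 lower (against 17.8%), with a median of 0.96. Snora33 read 9.89, 9.85 and 9.8 in AKR and 7.53, 6.02 and 6.65 in C57, with no overlap. It differed by 3.12 ± 0.33 (SE; limma, adjusted p = 0.000762), by 1.26 in room air and by 2.0 in the response. Snord118, the U8 RNA needed for ribosomal RNA processing, read 10.66, 10.61 and 10.45 against 7.28, 6.71 and 7.92, a difference of 3.27 ± 0.27 (SE) with 1.05 in room air and 0.98 in the AKR set difference, neither of them called. Snora31 differed by 2.95, the U3 RNA Rnu3a by 2.7, Snora73b by 2.36 and Snora16a by 2.2, each also called in the response. Snord53 had the largest value, 4.4, and 1.9 of it stood in the AKR set difference. In room air 3 of the 41 were higher (against 1.91% of all genes) and none lower, with a median of 0.38. In the response 8 were higher (against 2.03%) and 2 lower (against 5.41%). Per array the class lay at 0.662 to 0.831 on the AKR saline arrays and -0.523 to -0.246 on the C57 saline arrays. The uninstilled arrays also separated by strain, at -0.142 to 0.235 in AKR and -0.638 to -0.229 in C57. The C57 saline arrays thus lay within the range of uninstilled C57. AY036118, a transcript outside these lists whose probe set shares no RefSeq transcript with it, differed by 2.14.

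A part of the heart muscle genes was higher in AKR, unevenly over the arrays. Of 33 tested genes 11 were higher (against 17% of all genes) and none lower (against 17.8%), a share called of 33.3% against 34.8%, and the median was 0.71. Myl3, a light chain of ventricular myosin, read 9.77, 8.43 and 10.12 in AKR and 6.9, 7.03 and 7.07 in C57, a difference of 2.43 ± 0.39 (SE; limma, adjusted p = 0.00371). Tnnc1, the cardiac troponin C, read 10.37, 8.55 and 10.66 against 8.05, 8.6 and 8.6, overlapped between the strains and was not called (1.45). As a list the genes lay at 1.08 and 1.33 on AKR replicates 1 and 3 and at -0.184 on AKR replicate 2, which was within the range of the uninstilled arrays (-1.09 to 0.764). The number called was 31 without AKR replicate 2, 7 without AKR replicate 3, 3 without any of the other saline arrays and 3 after subtraction of the set difference. Myh7, the slow myosin heavy chain, was an exception: it read 9.62, 9.28 and 9.43 in AKR and 8.03, 8.1 and 8.02 in C57 and differed by 1.2 in room air too, where it was the only called member. Cox7a1, the heart and muscle form of a cytochrome oxidase subunit, differed by 1.51 and lost its call without any 1 of the C57 arrays or AKR replicate 1 (adjusted p 0.0812 to 0.102).

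Ciliated cell and mitochondrial genes varied with the same arrays. Of 34 tested ciliated cell genes 13 were higher (against 17% of all genes) and none lower (against 17.8%), a share called of 38.2% against 34.8%. The list stood at 0.97 on AKR replicate 3 against 0.331 and 0.0965 on the other AKR arrays. The call count was 28 without AKR replicate 2, 6 without C57 replicate 1 or 3, 7 without C57 replicate 2 or AKR replicate 1 and 0 after subtraction of the set difference. Foxj1, the master transcription factor of motile cilia, read 9.38, 9.41 and 9.86 in AKR and 8.69, 8.84 and 8.6 in C57 and differed by 0.84 ± 0.14 (SE; limma, adjusted p = 0.00495) with saline and -0.43 in room air. The axonemal genes Dnah9 and Rsph1 differed by 0.93 and 0.92, and both lost their calls without any 1 of the C57 arrays or AKR replicate 1 (adjusted p 0.061 to 0.11). Of 29 genes of oxidative phosphorylation 10 were higher (against 17% of all genes) and none lower (against 17.8%), a share called of 34.5% against 34.8%. The differences were small, such as 0.72 for Ndufa4 and 0.62 for Cox5b, both of cytochrome oxidase, the latter not called without C57 replicate 2, C57 replicate 3 or AKR replicate 1 (adjusted p 0.0503 to 0.0541). That count was 16 without AKR replicate 2, 3 without C57 replicate 3 or AKR replicate 1, 4 without C57 replicate 2, 5 without C57 replicate 1 and 3 after the subtraction. Bpifa1, a secreted airway protein, read 10.91, 7.68 and 11.46 in AKR and 10.19, 13.27 and 11.9 in C57, overlapped between the strains and was not called. Retnla, a resistin-like protein, read 10.15, 9.62 and 12.46 against 9.03, 9.29 and 9.09 and was not called.

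**Figure D5:**
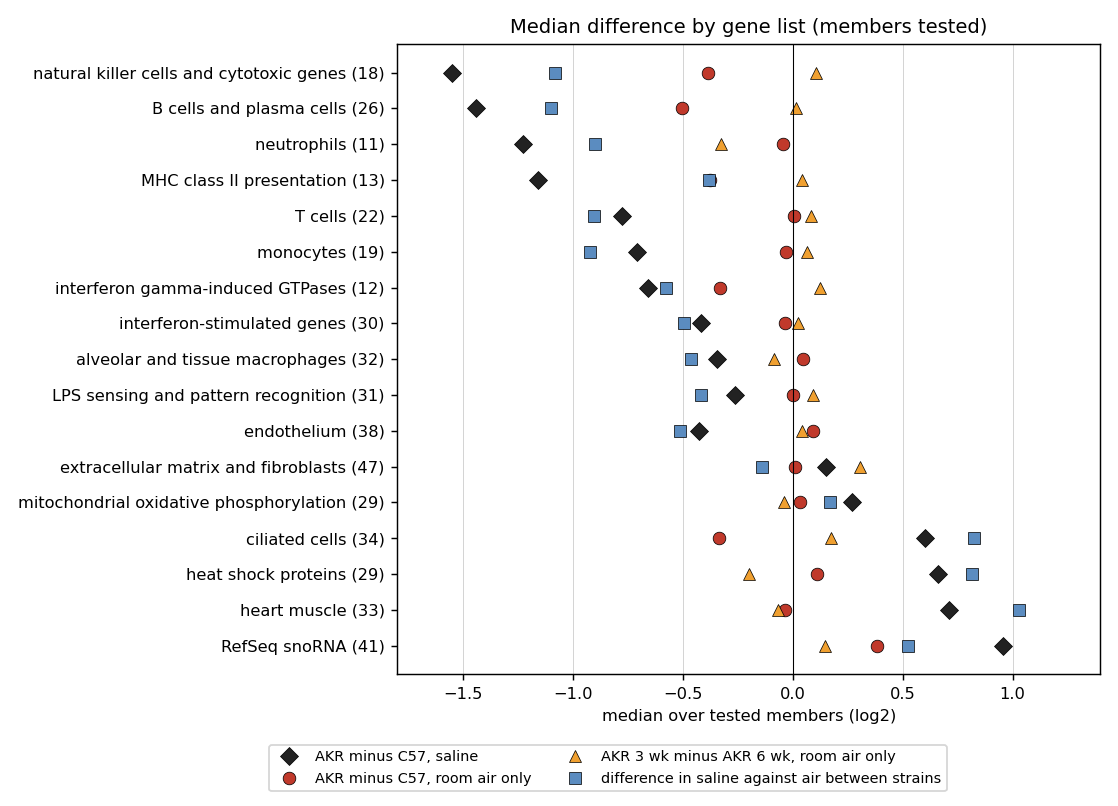
Median over the tested members of 17 gene lists (numbers of members in parentheses) of the difference between AKR and C57 with saline (diamonds), in room air only (circles), of AKR titled 3 against 6 weeks (triangles) and of the difference in the response to saline (squares), on the log2 scale. NK cell genes (-1.55) and B cell genes (-1.44) had the lowest saline medians and snoRNAs (0.96) the highest, and for extracellular matrix the AKR set difference (0.31) exceeded the saline median (0.15).

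Genes of the extracellular matrix split. Of 47 tested genes 18 were higher (against 17% of all genes) and 10 lower (against 17.8%). Eln, which encodes elastin, read 10.65, 10.56 and 10.53 in AKR and 9.03, 9.2 and 8.87 in C57, without overlap, and differed by 1.55 ± 0.1 (SE; limma, adjusted p = 0.000108), by -0.14 in room air and by 1.23 in the response. Col3a1 read 9.92, 9.74 and 9.94 against 8.45, 8.55 and 8.41 and differed by 1.4 ± 0.09 (SE), while 0.8 of it stood in the AKR set difference. The chains of type I collagen, Col1a1 and Col1a2, differed by 0.99 and 1.01 with saline and by 0.52 and 0.58 in the set difference, after whose subtraction neither was called (0.46 and 0.42). In that set difference 9 matrix genes were higher and none lower, against 203 of all genes (1.46%), and after its subtraction 2 were higher and 10 lower between the strains. The count was also 7 without C57 replicate 3, 9 without AKR replicate 1 and 10 without C57 replicate 1. Pdgfrb, the receptor of pericytes and fibroblasts, was lower, differing by -1.02 ± 0.15 (SE) and by -1.23 in the response. Timp1, an inhibitor of matrix proteases, differed by 0.94 and lost its call without C57 replicate 1 or 3 (adjusted p 0.081 and 0.071), as did Adam8, a surface protease of leukocytes (1.27; adjusted p 0.06 and 0.064).

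Endothelial genes were low on 1 AKR array. The list stood at -0.805 on AKR replicate 3 and at -0.159 and 0.155 on the other AKR saline arrays, against 0.0419 to 0.114 in C57 saline, and the alveolar type 1 list stood at -0.673 on that same array; the part of cell makeup in the differences was not tested. Of 38 tested endothelial genes 4 were lower and 3 higher, a share of 18.4% called against 34.8% of all genes. Emcn, a sialomucin of capillary and venous endothelium, read 10.37, 10.57 and 9.48 in AKR and 11.07, 11.15 and 11.3 in C57. Its difference of -1.03 ± 0.26 (SE; limma, adjusted p = 0.0203) lost its call without any 1 of the C57 arrays (adjusted p 0.055 to 0.074). Ptprb, a phosphatase of endothelial junctions, and Ramp2, the adrenomedullin receptor subunit, differed by -0.83 and -0.84 and were not called. Without AKR replicate 3 both were, at -0.42 and -0.45, and without AKR replicate 2 at -1.14 and -1.16.

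Of 28 tested complement genes 4 were higher (against 17% of all genes) and 11 lower (against 17.8%). Cfb, factor B of the alternative pathway, read 9.31, 9.55 and 9.5 in AKR and 8.33, 8.28 and 8.47 in C57, a difference of 1.09 ± 0.1 (SE), with 0.46 in room air and 0.78 in the response, both called. Masp2, a protease of the lectin pathway, was higher by 1.15 with saline and 0.67 in room air, and C7, a part of the membrane attack complex, lower, differing by -1.12 and -0.5. Of 9 tested acute-phase genes 4 were higher (against 17%) and none lower (against 17.8%). Hp, which encodes haptoglobin, differed by 1.02 ± 0.13 (SE), the haem carrier Hpx by 1.37 ± 0.26 (SE) and Orm1 by 2.18 ± 0.64 (SE; limma, adjusted p = 0.0347). Orm1 read 7.74, 7.27 and 9.95 in AKR, so AKR replicate 3 was far above the others, and its call was lost without any 1 of the C57 arrays or AKR replicate 1 (adjusted p 0.056 to 0.11). Muc4, a membrane mucin of airways, differed by 1.4, again with its highest value on AKR replicate 3 (9.76, 9.05 and 10.54), and was not called without C57 replicate 1, C57 replicate 3 or AKR replicate 1 (adjusted p 0.051 to 0.066). Chil1, a chitinase-like protein, was lower, differing by -1.41 with saline and -1.39 in room air; its saline call was lost without any 1 of the C57 arrays or AKR replicate 1 (adjusted p 0.056 to 0.066).

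Of 20 tested circadian genes 4 were higher (against 17% of all genes) and 9 lower (against 17.8%), and 3 were lower in room air (against 2.79%). The clock outputs Dbp and Hlf, transcription factors with a daily rhythm, differed by -1.11 and -1.27 with saline and by -0.63 and -0.72 without it, and the repressor Bhlhe41 by -1.26 and -0.8. Of 38 NRF2 targets and glutathione enzymes 11 were higher and 2 lower, and their share called (34.2%) was near that of all genes (34.8%); Gsta4, which conjugates lipid peroxidation products, differed by 0.82 with saline and -0.21 in room air. Cyp4f18, which metabolises leukotriene B4, was lower, differing by -1.28 and by -1.28 in the response. Of 14 tested genes of erythroid cells and platelets 7 were lower (against 17.8%) and 1 higher (against 17%): Alas2, the first enzyme of haem synthesis in red cells, differed by -1.65 and the platelet chemokine Ppbp by -2.35, which was -1.29 in room air.

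Some single genes stood out beside the lists. Prph, an intermediate filament of peripheral nerve, read 8.43, 8.65 and 8.19 in AKR and 6.07, 6.13 and 5.93 in C57 and differed by 2.38 ± 0.13 (SE) with saline, 0.95 in room air and 0.95 in the response, all called. Nr4a3, an immediate early nuclear receptor, read 8.29, 8.42 and 8.64 against 6.39, 6.44 and 7.14 and differed by 1.8 ± 0.2 (SE) with saline, -0.13 in room air and 2.15 in the response. Ppp1r3a, a glycogen-targeting subunit of protein phosphatase 1 in muscle, was higher by 1.24 and Rgs2, an inhibitor of G protein signalling, lower, differing by -1.32, with response differences of 1.66 and -1.1. Socs3, a feedback inhibitor of cytokine signalling, was higher by 1.04 on the probe set used and by 0.29 on its second one, and its call was lost without C57 replicate 2 or 3 (adjusted p 0.056 and 0.053). Ceacam1, an adhesion molecule and coronavirus receptor, was lower, differing by -1.5, with -0.55 in the AKR set difference, and Egfl6, a secreted matrix protein, was lower, differing by -1.46. Rpl34, Ublcp1 and Zfp874a, with Klrb1c, Snord53 and 4930578G10Rik, were the 6 called genes with the largest AKR set differences. They differed by -1.99, -2.44 and -1.93 with saline, by -1.42, -1.35 and -1.43 in the set difference, and by -0.73, -0.53 and -0.31 in room air.

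Called genes lay on every autosome and the X chromosome in like shares, from 30.7% on chromosome 16 to 38.3% on chromosome 1. Among tested genes ordered by position, 173 runs of 3 or more neighbours, with starts no more than 1 Mb apart, were called in one direction, and they held 599 genes. With 34.8% of all genes called, some such runs arise between unrelated neighbours, and their number was not tested. Where each gene also had to be called the same way in room air and differ at least 2-fold with saline, only Ifi213, Ifi209 and Ifi208 and the class II run remained. Besides the Ifi200, Slfn and class II runs, the longest were 9 Ms4a genes on chromosome 19 (median -1.52), 7 Slamf genes on chromosome 1 (-1.15), 7 genes around the Ccl chemokines on chromosome 11 (-1.26), 6 Gimap genes on chromosome 6 (-1.21) and 6 genes around the Trem receptors on chromosome 17 (-1.15), all lower in AKR. In each of these 5 runs 0 or 1 gene was called the same way in room air.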

How the data were processed

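Total RNA of whole lung was measured on Affymetrix mouse gene arrays, and the deposited values are log2 signals made by the authors with RMA, per the submitters' processing notes, with the version not stated and no detection calls. Whether RMA was run on all 31 arrays together is not given in the sources used here. Of 35556 probe sets, 21789 carried 1 gene symbol, 1621 several and 12146 were unnamed here; 99.6% of the symbols matched RefSeq by Entrez ID, which gave 19938 genes. For the 999 genes with several probe sets, the one with the highest mean was used. Of the tested genes, 355 rest on a probe set that lists no RefSeq transcript of that gene.

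The 6 saline arrays were quantile-normalized together, genes above the 40th percentile (6.342) on at least 3 of the 6 were kept (13861), and the strains were compared with limma 3.58.1 (R 4.3.3; lmFit and eBayes, two-sided, Benjamini-Hochberg adjusted p under 0.05, 4 residual degrees of freedom). No replicate covariate was used. The 14 arrays were normalized and fitted likewise for the room air, set and response differences (9 residual degrees of freedom). No array was dropped or imputed, and the number of arrays limits the precision. The procedure was tested on simulated data, and figures were drawn with matplotlib 3.10.9.

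Genes were named as the 12 with the largest differences in each direction, up to 4 of each list with the largest differences, the strain loci, the 8 with the largest response differences in each direction, the 6 with the largest set differences, and neighbouring runs, of which the text gives those with the largest medians or most members. Cd3e, Col1a1, Foxj1, H2-Oa, Hspd1, Hspe1 and Ly96, and Hspb1, Dnaja1 and Fkbp4 for their promoter letters, were chosen after their values were seen. The genes and lists were chosen with earlier results of these data known. Promoter letters were searched in RefSeq sequences (GRCm38.p6), 250 bases upstream of each start. Alternatives covered the normalization, the arrays fitted, the filter, the probe set, the empirical Bayes settings, a replicate block, the set difference and each array left out.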

Additional observations from a re-analysis of the deposited data

Results flagged for a closer look

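A difference between the strains in the response to saline, tested as an interaction on the 14 arrays (limma, adjusted p under 0.05), passed at 1032 of 13861 genes (7.45%). It passed at 70 of the genes named above. Some of these were named for this very difference, and others for a saline difference that shares arrays with it. The count of 70 thus follows in part from that choice and is no measure of how common such differences are. Values are given on the log2 scale, positive where the change with saline was more upward in AKR than in C57. Lymphocyte and cytotoxic genes with such a difference were Gzma (-2.44), Cd79a (-2.09), Ccl5 (-2.06), Cd79b (-1.9), Igha (-1.8), Ms4a1 (-1.85), Cd27 (-1.52), Cd2 (-1.45), Cr2 (-1.38), Cd72 (-1.33), Cd3e (-1.24), Cd8b1 (-1.22) and Il7r (-1.1). Myeloid genes with such a difference were Treml4 (-2.4), Ms4a4c (-2.3), Mmp8 (-1.98), Ms4a6c (-1.64), Cd68 (-1.48), Cxcr2 (-1.38) and Ccr2 (-1.33). Interferon, antigen presentation and sensing genes with such a difference were Tlr13 (-2.01), Cd180 (-1.98), Ly86 (-1.85), Ly96 (-1.6), H2-Ob (-1.25), Ifi203 (-1.2), Iigp1 (-1.16), Rsad2 (-1.15), Tlr1 (-1.15), Gbp7 (-1.14), H2-Oa (-1.04), Trim30a (-0.9), Ifi209 (-1.94), Ifitm6 (-1.42), H2-Eb2 (-0.78), Tap1 (-0.78) and Slfn2 (-0.76). Heat shock and stress genes with such a difference were Hspa5 (0.79), Hspd1 (0.95), Fkbp4 (1.07), Dnaja1 (1.26), Ahsa2 (1.54) and Hsph1 (3.32). Small nucleolar RNAs with such a difference were Snora73b (1.22), Snora16a (1.71), Rnu3a (1.78), Snora33 (2.0) and Snora31 (2.1). The other genes with such a difference were Serpinb10 (-3.91), Ly6a2 (-3.37), Glp1r (-2.79), Clec4a3 (-2.58), Vsnl1 (-2.55), Adgre4 (-2.55), Cyp4f18 (-1.28), Emcn (-1.24), Pdgfrb (-1.23), Rgs2 (-1.1), C7 (-0.71), Ceacam1 (-0.62), Col3a1 (0.57), Col1a1 (0.78), Cfb (0.78), Prph (0.95), Foxj1 (1.1), Hpx (1.14), Eln (1.23), Ppp1r3a (1.66), AY036118 (1.79) and Nr4a3 (2.15). The uninstilled arrays behind these values are 3 of C57 and 2 of AKR, and the part that arrays, titled time or cell numbers have in them was not tested. No group held 4 or more arrays, so single arrays were not tested as outliers.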

How the results depend on the processing

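Of the 140 genes named with values, none changed direction under the alternatives for the saline comparison in which it was tested (135 genes with the filter above the median, 140 in the others). Many were named for large differences on these same arrays, which makes a change of direction unlikely. Without C57 replicate 1, 2 or 3 or AKR replicate 1, 13, 13, 14 and 8 of the 140 lost their calls. None did without AKR replicate 2 or 3, and 10 did on all 31 arrays. The counts for B cell, NK cell, T cell, monocyte, class II, LPS sensing and snoRNA genes stayed within 1.5 times of the reported ones. Without the quantile step, 1037 genes were higher and 4497 lower (18.7% higher), and 8 ciliated, 7 heart muscle, 8 matrix and 3 oxidative phosphorylation genes were higher. On the 14 arrays fitted together 7 heart muscle genes were called. On all 31 arrays, 3 neutrophil, 5 interferon-stimulated, 3 GTPase and 6 heart muscle genes were called, and the room air and response counts were 431 and 327. After subtraction of the AKR set difference, measured on 2 against 3 arrays, 2228 genes were called, 833 higher and 1395 lower, with 4 neutrophil, 7 macrophage, 11 interferon-stimulated, 3 heart muscle, 0 ciliated, 2 matrix and 3 oxidative phosphorylation genes; 22 of the 140 genes lost their calls. The set difference itself was called at 1309 genes on deposited values, 715 on median-centred arrays and 734 without the filter. The cause of these changes was not tested.

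Same-numbered arrays of the strains deviated with correlations of -0.114, -0.323 and -0.0994. Pairs with unlike numbers were not compared, so these values cannot show whether same-numbered arrays share more than a number. With the replicate number as a block, 3497 genes were called (1630 higher, 1867 lower), 7 ciliated cell genes, 131 genes in the set difference and 600 in the response.

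Leaving out 1 array at a time gave ranges of 2748 to 5533 calls with saline, 1272 to 2830 higher and 1453 to 2703 lower. The ranges were 4 to 9 for neutrophil, 12 to 20 for interferon-stimulated, 12 to 18 for heat shock, 3 to 31 for heart muscle, 6 to 28 for ciliated, 7 to 22 for matrix and 3 to 16 for oxidative phosphorylation genes. They were 362 to 692 for room air, 7 to 120 for the set difference and 213 to 2124 for the response. Dim signals near the 40th percentile limit what can be seen in genes that 1 strain hardly expresses.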
